A study of Homo sapiens with 6 samples.

Results

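Glycolysis and hypoxia-inducible genes were examined in IMR90 cells, a strain of human fetal lung fibroblasts, that carried ARID1B cDNA or an empty vector. The set was defined by 37 gene symbols, and all 37 were found among the 57232 genes measured. ARID1B encodes a DNA-binding subunit of the SWI/SNF chromatin remodelling complex, and the study used its cDNA to ask what extra ARID1B does in normal fibroblasts. One group was infected with ARID1B cDNA (3 libraries) and the other with the empty vector (3 libraries). Both groups were at passage 13 in medium with 10% serum, had puromycin in the medium until day 4, and RNA came from cells 6 days after infection. The libraries came from a stranded mRNA kit. The labels give no oxygen level, and no group is named as hypoxic. They also name no promoter for the cDNA. The study calls its replicates biological, and neither it nor the labels say how the cultures were separated, so p-values measure the spread between these libraries.

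Glycolysis turns glucose into pyruvate. Glucose enters through the SLC2A transporters, hexokinases trap it, and a chain of enzymes that ends with pyruvate kinase releases ATP and NADH. Lactate dehydrogenase turns pyruvate into lactate, which leaves the cell through the SLC16A transporters. Most of these genes are targets of the hypoxia-inducible factors (HIFs), in which an alpha subunit, HIF-1α (HIF1A) or HIF-2α (EPAS1), pairs with ARNT and binds short DNA motifs with the core ACGTG or GCGTG. When oxygen is present, prolyl hydroxylases such as EGLN1 mark the alpha subunits for breakdown, so the activity of a HIF is set largely by its protein and not by its mRNA. Only mRNA was measured here.

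The promoters of the set were searched for these cores on both strands, since many of the genes are described as direct HIF targets. RefSeq promoter windows of 300 bases (250 before and 50 after a transcription start, GRCh38.p14) were matched for 32 of the 37 genes, with 60 windows in all and up to 7 for a gene. SLC2A3, SLC16A1, VEGFA, BNIP3L and NDRG1 were not matched. ACGTG was found in 36.7% of these windows and in 21.4% of all 35116 windows. GCGTG was found in 43.3% against 36.5%, and either core in 68.3% against 48.4%. Some windows of a gene overlap and hold the same core. Counted by gene, either core was found in 93.8% of the 32 genes and in 52.4% of all 27305 genes. A gene with more windows has more chances of a match. The comparison took every gene with a window, not matched to the set for number of windows, base content or expression. No test was made of these shares. A match is a description of the letters and not a binding site. The 250 bases before the start are shown for 5 genes, chosen after their values were seen because the results below turn on them. Where a gene had more than 1 window, the window with the most matches is shown, so the match counts below are selected. Another LDHA window held 1 GCGTG and no ACGTG, and another HIF1A window held neither core. LDHA and ENO1 stand for the enzymes, HIF1A and EPAS1 are the alpha subunits, and BNIP3 is the hypoxia-inducible gene whose levels ranked the libraries of each group as most enzymes did. Each is written 5′ to 3′ on the strand of the gene, in lower case with the cores in capitals, where CACGC and CACGT are cores on the other strand.
LDHA: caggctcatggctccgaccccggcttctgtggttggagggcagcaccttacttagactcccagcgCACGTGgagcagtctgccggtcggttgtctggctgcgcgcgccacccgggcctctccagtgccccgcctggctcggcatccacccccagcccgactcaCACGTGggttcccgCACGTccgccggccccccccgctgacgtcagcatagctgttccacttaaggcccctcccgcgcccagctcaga
ENO1: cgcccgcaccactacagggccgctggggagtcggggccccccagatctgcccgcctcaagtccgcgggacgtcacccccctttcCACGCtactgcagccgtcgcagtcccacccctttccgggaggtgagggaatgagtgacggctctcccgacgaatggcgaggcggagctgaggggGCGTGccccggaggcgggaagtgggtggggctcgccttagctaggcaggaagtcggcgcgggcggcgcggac
BNIP3: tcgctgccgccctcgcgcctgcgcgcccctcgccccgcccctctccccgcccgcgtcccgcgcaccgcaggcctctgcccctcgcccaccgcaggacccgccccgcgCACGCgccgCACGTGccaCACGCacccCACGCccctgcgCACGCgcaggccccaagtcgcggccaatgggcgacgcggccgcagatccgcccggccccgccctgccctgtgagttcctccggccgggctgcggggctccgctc
HIF1A: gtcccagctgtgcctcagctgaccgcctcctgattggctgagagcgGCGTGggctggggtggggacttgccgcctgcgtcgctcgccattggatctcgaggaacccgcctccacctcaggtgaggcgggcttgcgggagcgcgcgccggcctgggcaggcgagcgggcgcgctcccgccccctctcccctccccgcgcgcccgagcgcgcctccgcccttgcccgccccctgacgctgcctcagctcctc
EPAS1: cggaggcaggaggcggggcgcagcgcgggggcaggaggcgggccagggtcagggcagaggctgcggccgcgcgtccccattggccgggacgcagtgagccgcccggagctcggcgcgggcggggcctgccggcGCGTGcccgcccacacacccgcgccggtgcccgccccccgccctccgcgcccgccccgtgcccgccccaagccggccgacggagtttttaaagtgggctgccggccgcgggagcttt
The LDHA stretch (chr11:18394313-18394562, plus strand) held 5 matches between 185 and 73 bases before the start, all of them ACGTG, and the palindrome CACGTG counts once for each strand. The BNIP3 stretch (chr10:131981924-131982173, minus strand) held 6 matches between 143 and 104 bases before the start. The ENO1 stretch (chr1:8878687-8878936, minus strand) held 2 matches, and the stretches of HIF1A (chr14:61695263-61695512, plus strand) and EPAS1 (chr2:46297157-46297406, plus strand) held 1 GCGTG each.

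The values are FPKM, which divide the fragments of a gene by its length and by the size of the library, so levels of different genes can be set side by side. Library totals recovered from the FPKM steps lay between 70022493 and 91924514 fragments for ARID1B and between 63386813 and 90548577 for the vector. The median gene tested held 2283 to 3352.5 reads. Counting error was not computed beside the spread between libraries. ARID1B itself averaged 27.3 ± 5.79 FPKM in ARID1B libraries and 1.88 ± 0.509 in vector libraries (SD, n = 3 each), with adjusted p = 0.0255 by limma. The log2 change of ARID1B stayed between 3.14 and 3.46 with any library left out, but its adjusted p was then above 0.05 (0.0601 to 0.323) in every case but the one without vector replicate 2. Vector replicate 2 was unlike the rest of the libraries. The main axis of a principal component analysis took 63.8% of the variance, and on it this library lay at -48.5 while the others lay between -3.63 and 20.0. Replicate 3 lay between replicates 1 and 2 for 69.2% of genes in ARID1B libraries and 85.0% in vector libraries, while any other replicate lay between its partners for 3.38% to 18.2% of genes. Both replicates 3 may thus not be independent samples, and the tests treat all 3 as independent. All 9 fibroblast markers were at 21.6 FPKM or more on average. Every epithelial and blood marker and 3 of 4 endothelial markers were under 1 FPKM (TEK averaged 2.40 FPKM), while 3 of 5 smooth muscle markers were above 1 FPKM, with list sums of 184.5 to 254.8 FPKM in ARID1B libraries and 121 to 195 FPKM in vector libraries.

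None of the 34 glycolysis and hypoxia-inducible genes that averaged 1 FPKM or more rose or fell in ARID1B libraries at an adjusted p under 0.05 (limma on log2(FPKM + 1), Benjamini-Hochberg adjustment over 10416 genes). Over all genes tested, 0.0288% rose and 0% fell, so the background itself was almost empty. At an unadjusted p under 0.05, SLC2A3, HIF1A, VEGFA and NDRG1 were higher and no gene of the set was lower, that is 4 and 0 of 34, against 4.64% higher and 5.94% lower over all genes. The 3 ARID1B values all lay above the 3 vector values for 6 of the 34 genes, against 9.44% of all genes, and all below them for 2, against 11.1% of all genes. The log2 change was positive for 20 and negative for 14, with a median of 0.069 (all genes, -0.015). With 3 libraries a group, an exact permutation test of a single gene cannot go below p = 0.1. EGLN3, CA9 and ANKRD37 were under 1 FPKM and were not tested.

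**Figure D1:**
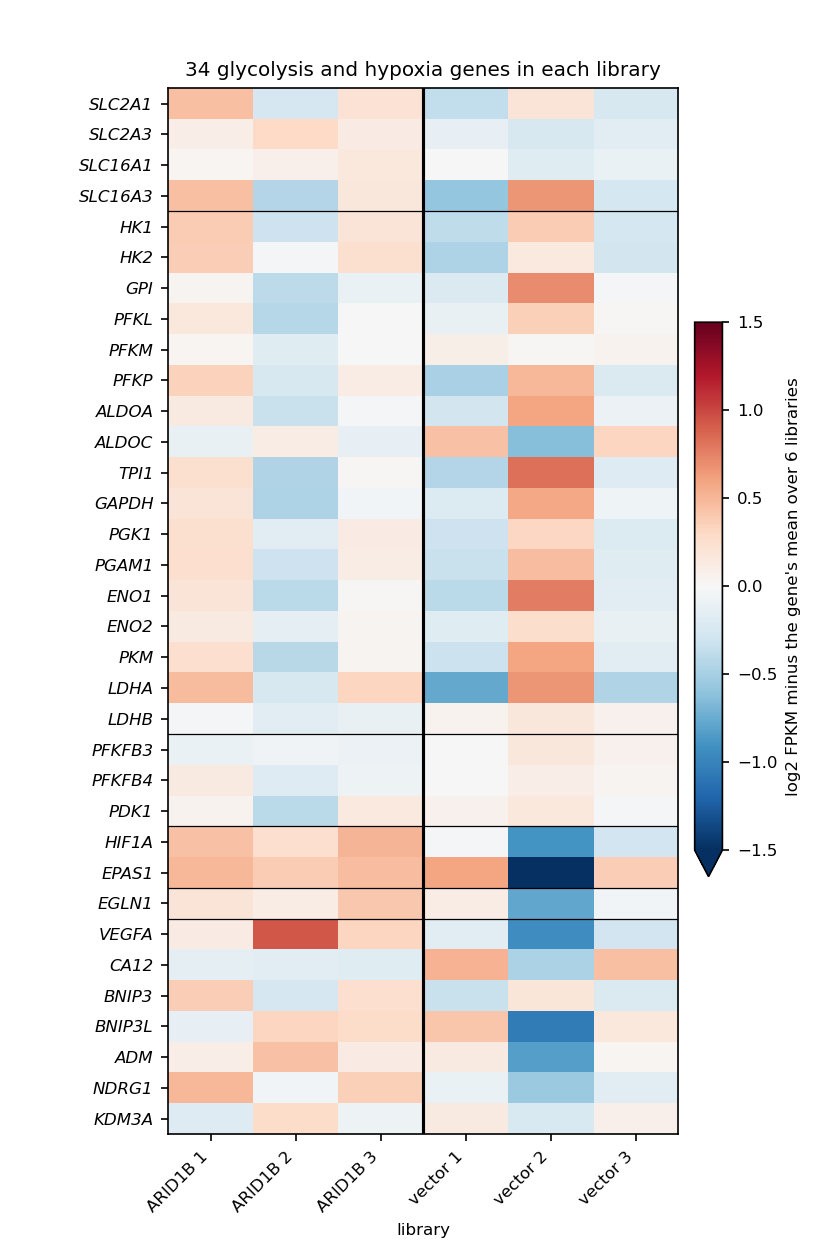
Colour map of log2 FPKM minus the mean of each gene over the 6 libraries, for the 34 genes tested (rows, grouped by role) in the 3 ARID1B and 3 vector libraries (columns). Most glycolytic enzymes are darkest red in vector replicate 2, where HIF1A, EPAS1, VEGFA and BNIP3L are blue, and EPAS1 there passes the end of the colour scale.

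The 4 transporters all had positive log2 changes, between 0.11 and 0.30, and none passed the test. SLC2A3 (GLUT3, a high-affinity glucose transporter; ENSG00000059804) had 6.62, 7.62 and 6.74 FPKM in ARID1B libraries, against 5.66, 5.24 and 5.49 FPKM in vector libraries. The groups did not overlap, and the log2 change was 0.30 ± 0.10 (SE) (adjusted p = 0.391 by limma). SLC2A1 (GLUT1, the main glucose transporter of fibroblasts) was the more abundant of the pair, with 35.0, 21.6 and 29.8 FPKM in ARID1B libraries and 19.8, 29.2 and 21.7 FPKM in vector libraries. Its groups overlapped, because ARID1B replicate 2 was as low as vector replicates 1 and 3 and vector replicate 2 was nearly as high as ARID1B replicate 3. The log2 change of SLC2A1 was 0.27 (95% interval -0.27 to 0.81). SLC16A1 (MCT1, a carrier of lactate and pyruvate) had 6.78, 7.01 and 7.43 FPKM in ARID1B libraries, against 6.65, 5.84 and 6.21 FPKM in vector libraries, so that the groups did not overlap but nearly met at replicate 1 of each. SLC16A3 (MCT4, the HIF-responsive exporter of lactate) had 14.7, 7.87 and 12.0 FPKM with ARID1B and 7.17, 17.0 and 8.88 FPKM with the vector, with the highest and the lowest library both in the vector group.

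Most of the 17 glycolytic enzymes overlapped between groups, with LDHB as the exception. The log2 change was positive for 7 and negative for 10, with a median of -0.082, and the smallest adjusted p was 0.559 (HK2). Summed over the 17 enzymes, the level was 1888, 1263 and 1652 FPKM in ARID1B libraries, against 1365, 2443 and 1519.8 FPKM in vector libraries. Vector replicate 2 thus held the highest sum and ARID1B replicate 2 the lowest. The sums of vector replicates 1 and 3 lay below those of ARID1B replicates 1 and 3. Vector replicate 2 was the highest of the 6 libraries for 13 of the 17 enzymes (76.5%, against 39.5% of all genes), and the median ratio of vector replicate 2 to the mean of vector replicates 1 and 3 was 1.63. In 15 of 17 enzymes (88.2%, against 28.6% of all genes), the ARID1B libraries ranked 1, 3, 2 from high to low and the vector libraries 2, 3, 1. The 2 exceptions were PFKM and ALDOC.

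The entry steps were among these. HK1, the broadly expressed hexokinase, had 21.9, 13.6 and 19.2 FPKM in ARID1B libraries and 12.98, 21.9 and 14.0 FPKM in vector libraries. HK2, the hexokinase that hypoxia induces, was lower in level, with 5.42, 4.11 and 4.96 FPKM in ARID1B libraries and 3.05, 4.65 and 3.47 FPKM in vector libraries, a log2 change of 0.31 ± 0.16 (SE). Only the overlap of ARID1B replicate 2 with vector replicate 2 kept the HK2 groups from separating. GPI, which turns glucose 6-phosphate into fructose 6-phosphate, had 11.5, 8.46 and 10.4 FPKM with ARID1B and 9.57, 18.2 and 10.9 FPKM with the vector. Its log2 change was -0.28 (95% interval -0.87 to 0.31), which moved to -0.023 without vector replicate 2.

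Phosphofructokinase, the committed step, was mostly PFKP, the platelet isoform, with 40.4, 26.9 and 34.5 FPKM in ARID1B libraries and 22.8, 45.1 and 27.4 FPKM in vector libraries. PFKM, the muscle isoform, was steady, with 8.95, 7.73 and 8.72 FPKM with ARID1B and 9.30, 8.90 and 9.08 FPKM with the vector. PFKL, the liver isoform, lay between 4.86 and 7.29 FPKM with ARID1B and between 6.06 and 8.36 FPKM with the vector. As a share of the summed FPKM of the 3 isoforms, PFKL took 12.7 ± 0.391% in ARID1B libraries and 14.9 ± 1.31% in vector libraries (SD, n = 3 each), and these shares did not overlap. No test was made of the shares. Those of PFKP and PFKM overlapped between groups, as did those of HK1, ALDOA and ENO1 in their own steps. Among all steps and gene pairs compared, only the PFKL share did not overlap. ALDOA, the main aldolase, had 72.0, 51.8 and 64.0 FPKM with ARID1B and 54.1, 98.4 and 61.8 FPKM with the vector. In its paralogue ALDOC the vector libraries ran in the opposite order, with 3.63, 4.24 and 3.62 FPKM in ARID1B libraries and 5.36, 2.52 and 4.94 FPKM in vector libraries. ALDOC was the lowest in vector replicate 2, where ALDOA was the highest.

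GAPDH, which makes NADH and is often used as a loading control, was the most abundant of the 17 enzymes and had 739, 470.3 and 628 FPKM in ARID1B libraries, against 561, 964 and 618 FPKM in vector libraries. It differed 2.05-fold between the highest and the lowest library, with a log2 change between groups of -0.20 ± 0.27 (SE). TPI1, which interconverts the triose phosphates, showed a still wider vector group, with 116, 71.4 and 98.8 FPKM in ARID1B libraries and 72.1, 174 and 85.6 FPKM in vector libraries. PGK1, the first ATP-making step and a classical HIF target, had 61.7, 46.4 and 57.0 FPKM with ARID1B and 42.1, 65.0 and 45.4 FPKM with the vector. PGAM1, the mutase after PGK1, averaged 142 ± 27.2 FPKM in ARID1B libraries and 141 ± 43.1 FPKM in vector libraries (SD, n = 3 each). ENO1, the main enolase, had 269.6, 179 and 239.9 FPKM in ARID1B libraries and 179, 403 and 211 FPKM in vector libraries. The neuronal paralogue ENO2 was present at 4.68 to 5.65 FPKM with ARID1B and 4.54 to 6.16 FPKM with the vector. PKM, pyruvate kinase, had 178, 112 and 154 FPKM with ARID1B and 119, 225 and 134 FPKM with the vector. For all of these the groups overlapped, and each of the 95% intervals of the log2 change included 0.

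Lactate dehydrogenase is a tetramer of LDHA subunits, which favour lactate formation, and LDHB subunits, which favour its oxidation. LDHA had 59.6, 36.5 and 54.0 FPKM in ARID1B libraries, against 25.2, 67.8 and 31.4 FPKM in vector libraries. ARID1B replicates 1 and 3 lay well above vector replicates 1 and 3, but vector replicate 2 was the highest of all, at 2.39 times the mean of the other vector libraries. The log2 change was 0.36 ± 0.39 (SE; adjusted p = 0.754), and 0.78 without vector replicate 2 (adjusted p = 0.122). LDHB had 122, 110.0 and 114 FPKM with ARID1B and 128, 139 and 129 FPKM with the vector, with no overlap and a log2 change of -0.19 ± 0.11 (SE; adjusted p = 0.595). LDHA made up 32.8%, 24.9% and 32.2% of the summed FPKM of both subunits in ARID1B libraries and 16.5%, 32.8% and 19.6% in vector libraries, so LDHB was the major subunit mRNA in every library. LDHA shares sequence with 6 named pseudogenes in the table, whose summed level was 10.5% of that of LDHA, and part of its reads may therefore be split.

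**Figure D2:**
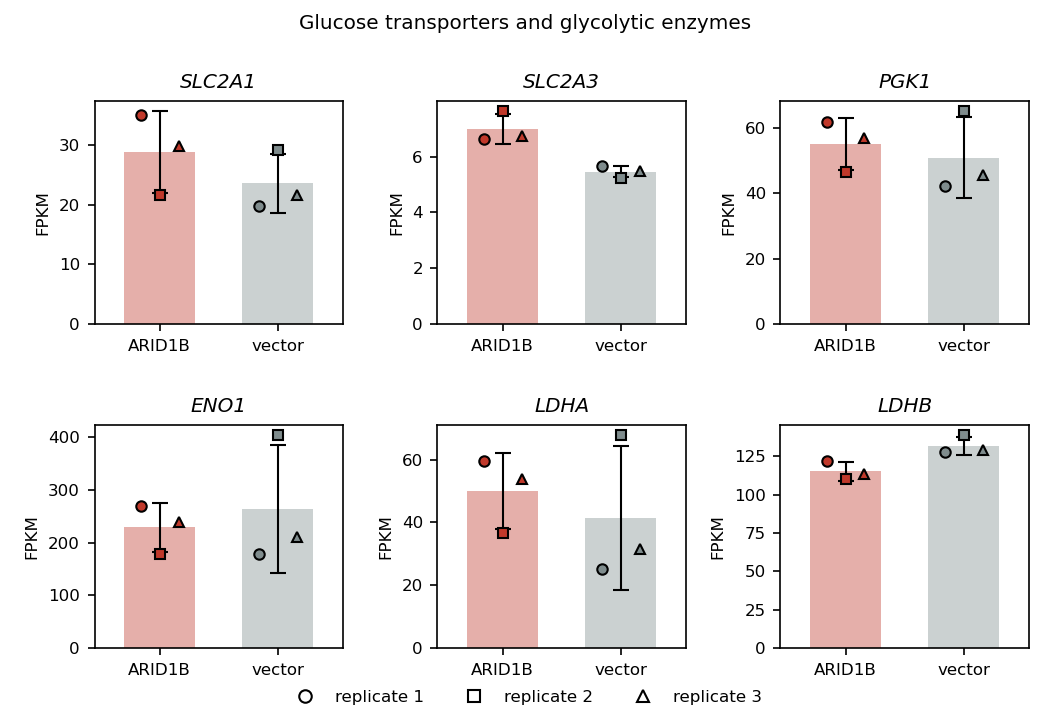
FPKM of 2 glucose transporters and 4 enzymes, with ARID1B libraries at the left and vector libraries at the right of each panel (bars, mean; error bars, SD, n = 3; points, single libraries by replicate number; each axis starts at 0). In the vector group of PGK1, ENO1 and LDHA, replicate 2 lies above replicates 1 and 3, whereas SLC2A3 and LDHB show no overlap between groups.

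Leaving out vector replicate 2 moved the log2 change of every enzyme upward except for ALDOC and PFKM, which moved downward. The median log2 change of the 17 enzymes was then 0.19, with 12 positive and 5 negative, and none passed the test. Within each group the sum of the enzymes ranked the libraries as the sum of the dividing-cell markers did, though not across all 6 libraries. The summed level of these markers was 88.2, 45.3 and 81.8 FPKM in ARID1B libraries and 33.9, 99.8 and 43.0 FPKM in vector libraries. MKI67, a marker of cells in cycle, had 9.73, 3.52 and 8.14 FPKM in ARID1B libraries and 2.83, 6.49 and 3.38 FPKM in vector libraries. Their part in the enzyme levels was not tested. Across all genes the log2 change also moved with GC content (Spearman rho -0.55 over 10195 genes, which are not independent, and -0.27 without vector replicate 2). With transcript length, rho was 0.40, and 0.016 without that library. The set had a median GC content of 52.8% against 47.8% for all genes, and a median length of 3813 against 3614 bases. After correction of each library for GC content and transcript length, the enzyme median was 0.026.

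The 3 regulators of glycolytic flux had small negative log2 changes. PFKFB3, which makes fructose 2,6-bisphosphate, the activator of phosphofructokinase, had 5.02, 5.20 and 5.05 FPKM in ARID1B libraries, against 5.42, 6.03 and 5.63 FPKM in vector libraries. The groups did not overlap, with a log2 change of -0.14 ± 0.095 (SE; adjusted p = 0.655). PFKFB4, a second enzyme of that kind, lay between 1.34 and 1.68 FPKM with ARID1B and between 1.53 and 1.64 FPKM with the vector. PDK1, which shuts pyruvate out of mitochondrial oxidation, lay between 3.87 and 5.68 FPKM with ARID1B and between 5.08 and 5.75 FPKM with the vector.

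The HIF subunits, the hydroxylases and the other hypoxia-inducible genes showed another pattern. Of the 10 tested, 9 had a positive log2 change (47.6% of all genes) and 1 a negative, with a median of 0.40. The groups of HIF1A, EGLN1, VEGFA and NDRG1, that is 4 of 10, did not overlap and were higher with ARID1B (9.44% of all genes). None passed the test, and vector replicate 2 was the lowest library for 9 of the 10 (90.0%, against 37.5% of all genes). Without that library the median was 0.15, with 6 positive and 4 negative.

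HIF1A (ENSG00000100644) had 62.7, 55.1 and 65.5 FPKM in ARID1B libraries, against 45.5, 24.7 and 37.7 FPKM in vector libraries. The lowest ARID1B library lay above the highest vector library. The log2 change was 0.79 ± 0.23 (SE; 95% interval 0.23 to 1.35), or 1.73-fold on FPKM + 1, with adjusted p = 0.350 by limma, the smallest of the set. Without vector replicate 2 it was 0.55 with adjusted p = 0.0812, and after correction for GC content and length 0.63 with adjusted p = 0.341. EPAS1 had 73.7, 68.3 and 72.0 FPKM in ARID1B libraries, against 79.0, 10.5 and 67.5 FPKM in vector libraries. The libraries other than vector replicate 2 were thus close together, and that library alone was low, at 0.144 times the mean of the other vector libraries. The log2 change of EPAS1, 0.86 ± 0.72 (SE; adjusted p = 0.709), rested on that library and was -0.034 without it. HIF1A made up 46.0%, 44.6% and 47.6% of the summed FPKM of the alpha subunits in ARID1B libraries and 36.6%, 70.1% and 35.8% in vector libraries, where the high value is again vector replicate 2. Antisense genes of HIF1A were present at 1.32% of its level.

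Of the hydroxylases, EGLN1 (PHD2, the main oxygen sensor of most cells) had 7.13, 6.71 and 8.22 FPKM in ARID1B libraries, against 6.71, 3.63 and 6.07 FPKM in vector libraries. The lowest ARID1B library and the highest vector library were equal to 3 digits, with no overlap beyond that, and the log2 change was 0.40 ± 0.21 (SE; adjusted p = 0.559). EGLN3 (PHD3), which hypoxia induces strongly in many cells, lay between 0.00792 and 0.0112 FPKM with ARID1B and between 0.00517 and 0.0115 FPKM with the vector. CA9, a carbonic anhydrase that is nearly silent in most normoxic cells, was also close to 0, between 0.0137 and 0.0870 FPKM with ARID1B and between 0.0168 and 0.0441 FPKM with the vector. ANKRD37, a small HIF target, lay between 0.212 and 0.324 FPKM with ARID1B and between 0.137 and 0.380 FPKM with the vector. These 3 genes were thus at a low level in both groups.

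VEGFA, the angiogenic growth factor, had 2.94, 5.16 and 3.36 FPKM in ARID1B libraries, against 2.40, 1.42 and 2.20 FPKM in vector libraries. The groups did not overlap, although ARID1B replicate 2 carried much of the difference. The log2 change was 0.67 ± 0.21 (SE), or 1.59-fold on FPKM + 1 (adjusted p = 0.382 by limma). Mean VEGFA was 3.82 FPKM with ARID1B and 2.01 FPKM with the vector, so the fold of FPKM itself was larger. NDRG1, a stress gene that HIFs induce, had 5.61, 3.85 and 5.08 FPKM in ARID1B libraries, against 3.68, 2.69 and 3.55 FPKM in vector libraries. Its groups did not overlap either, with ARID1B replicate 2 just above vector replicate 1, and the log2 change was 0.44 ± 0.16 (SE; adjusted p = 0.425 by limma). ADM, the vasodilator peptide adrenomedullin, had 16.1, 20.4 and 16.4 FPKM in ARID1B libraries and 16.5, 8.47 and 15.4 FPKM in vector libraries. The ADM difference came mostly from vector replicate 2, with a log2 change of 0.41 with it and 0.13 without it.

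The paired mitophagy receptors BNIP3 and BNIP3L did not move alike across libraries. BNIP3 had 30.4, 19.8 and 28.0 FPKM in ARID1B libraries and 18.7, 26.7 and 20.3 FPKM in vector libraries, which within each group is the order of most glycolytic enzymes. BNIP3L had 28.7, 39.0 and 37.6 FPKM in ARID1B libraries and 41.7, 15.0 and 34.8 FPKM in vector libraries, which within each group is the reverse order. BNIP3 therefore took 51.5%, 33.6% and 42.7% of the summed FPKM of both in ARID1B libraries, against 31.0%, 64.0% and 36.8% in vector libraries. BNIP3 has 39 named pseudogenes in the table, with a summed level of 12.1% of its own. KDM3A, a histone demethylase, lay between 1.36 and 1.88 FPKM with ARID1B and between 1.33 and 1.71 FPKM with the vector.

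CA12, a membrane carbonic anhydrase, was the gene of this group with a negative log2 change. It had 4.24, 4.19 and 4.15 FPKM in ARID1B libraries, against 6.76, 3.39 and 6.43 FPKM in vector libraries. The 3 ARID1B libraries were nearly equal and lay between vector replicate 2 and the other vector libraries. With all libraries the log2 change was -0.28 ± 0.23 (SE; adjusted p = 0.694). Without vector replicate 2 it was -0.55 with adjusted p = 0.0307 by limma, so that CA12 was then the 1 gene of the set past the threshold. Only vector replicates 1 and 3 were left in that fit. Fitted as a mixture of replicates 1 and 2, vector replicate 3 took 80.6% of its weight from replicate 1. The vector libraries left may thus not be independent, and an adjusted p from that fit may be too small. Over all genes 1.20% rose and 1.91% fell in that fit, so 0 and 1 of 34 genes are close to the background.

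**Figure D3:**
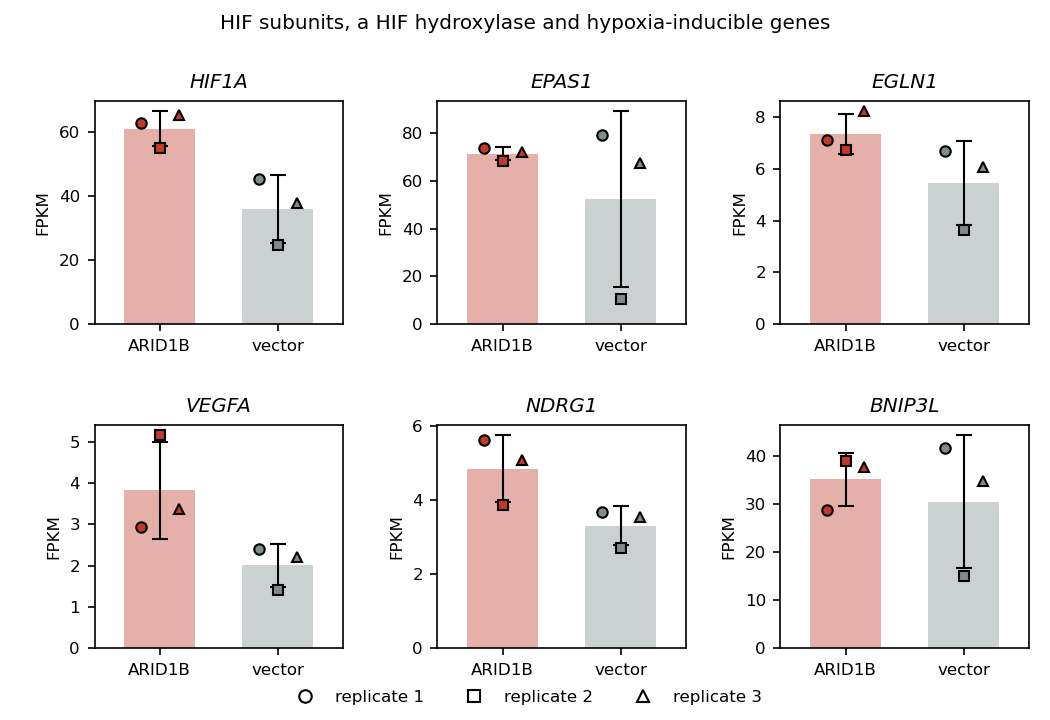
FPKM of HIF1A, EPAS1, EGLN1, VEGFA, NDRG1 and BNIP3L, with ARID1B libraries at the left and vector libraries at the right of each panel (bars, mean; error bars, SD, n = 3; points, single libraries by replicate number; each axis starts at 0). Vector replicate 2 is the lowest vector library in all 6 panels, and EPAS1 and BNIP3L are otherwise at like levels in both groups.

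**Figure D4:**
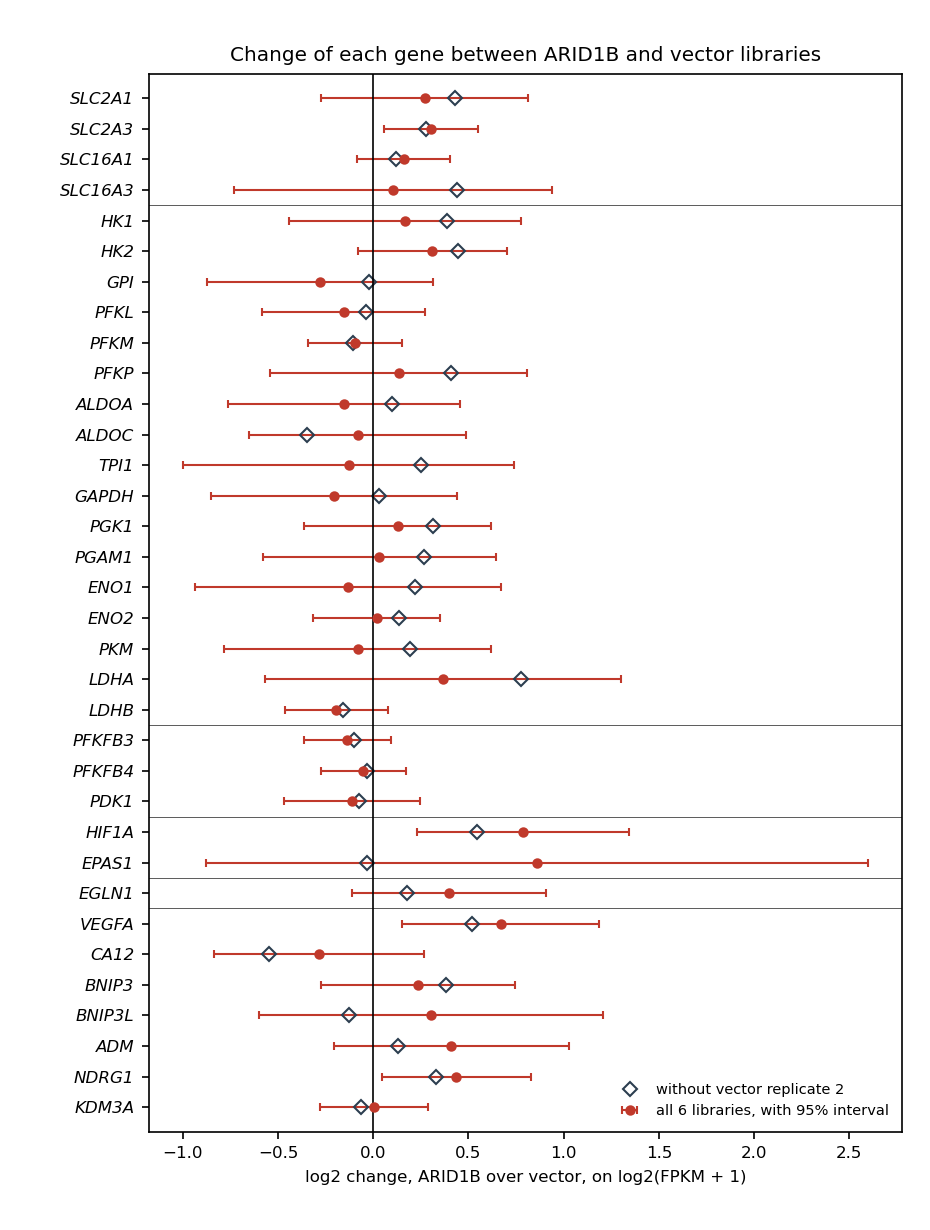
Log2 change of each of the 34 genes, ARID1B over vector, on the log2(FPKM + 1) scale, with its 95% interval from limma (filled circles) and the value without vector replicate 2 (open diamonds). The intervals of SLC2A3, HIF1A, VEGFA and NDRG1 exclude 0 before adjustment, most enzymes move to the right and EPAS1, ADM and BNIP3L to the left when that library is left out.

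**Figure D5:**
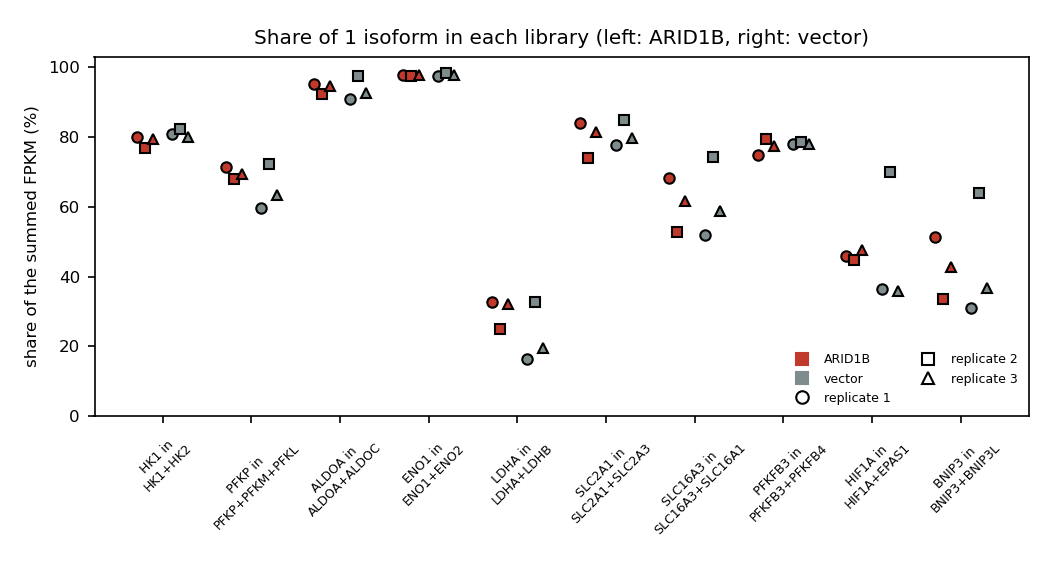
Share of the summed FPKM of a step or gene pair taken by 1 isoform, in percent, for each of the 6 libraries (left of each pair, ARID1B; right, vector; marker shape, replicate number). The LDHA share of ARID1B replicates 1 and 3 and of vector replicate 2 is near 32%, and the HIF1A share of vector replicate 2, at 70.1%, is far from the other 5 libraries.

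Other genes of the same pathways gave no calls with all libraries. Of 44 listed genes of glycolysis and pyruvate use, 28 were tested, with 0 that rose, 0 that fell and a median log2 change of 0.11. Those with the smallest p were C12orf5 (TIGAR, a phosphatase that lowers fructose 2,6-bisphosphate), at 24.0 ± 0.432 FPKM with ARID1B and 18.4 ± 0.167 FPKM with the vector (SD, n = 3 each; adjusted p = 0.318 by limma), and DLAT, a subunit of pyruvate dehydrogenase, at 9.15 ± 0.605 FPKM and 7.50 ± 0.457 FPKM (adjusted p = 0.469). For TIGAR the 3 ARID1B libraries lay between 23.5 and 24.3 FPKM and the 3 vector libraries between 18.3 and 18.6 FPKM, so the libraries of each group lay close together, unlike those of most enzymes.

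Of 44 listed genes of oxygen sensing and known HIF targets, 37 were tested, again with 0 that rose and 0 that fell. The median log2 change was 0.10, and before adjustment 9 were higher and 0 lower at a p under 0.05 (all genes, 4.64% and 5.94%). In 13 the groups did not overlap, all higher with ARID1B (all genes, 9.44%). The list was chosen with earlier results of these data known, so these counts only describe it. Vector replicate 2 was the lowest of the 6 libraries for 25 of the 37 (67.6%, against 37.5% of all genes). Without that library the median was 0.15, with 23 positive and 14 negative. PLOD2, a lysyl hydroxylase that modifies collagen, had 21.8, 19.0 and 23.9 FPKM in ARID1B libraries, against 10.3, 7.75 and 9.33 FPKM in vector libraries. Its change was 2.23-fold on FPKM + 1 (adjusted p = 0.129 by limma). LOX, which crosslinks collagen, had 119.6, 149.2 and 141 FPKM in ARID1B libraries, against 75.0, 58.6 and 65.9 FPKM in vector libraries. The LOX change was 2.04-fold on FPKM + 1 (adjusted p = 0.165 by limma). Both are HIF targets that also belong to the matrix programme of fibroblasts. Without vector replicate 2, PLOD2 (adjusted p = 0.0291), LOX (0.0372) and TFRC (0.0454), the transferrin receptor, rose and DDIT4 (0.0431), an inhibitor of mTORC1, fell by the same limma test. That is 3 and 1 of 37 genes, against 1.20% and 1.91% of all genes in that fit. Vector replicates 1 and 3, the vector libraries left, may not be independent, so these adjusted p may be too small. TFRC and DDIT4 were named after their values were seen. DDIT4 had 4.63, 7.42 and 4.96 FPKM in ARID1B libraries and 15.1, 1.05 and 13.2 FPKM in vector libraries, so that vector replicate 2 was the lowest of the 6 libraries and the call came only without it (adjusted p = 0.916 with it).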

How the data were processed

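RNA was sequenced from 3 ARID1B and 3 vector libraries of IMR90 cells. The authors deposited FPKM values for 57232 genes, and hg19, DESeq2, HTSeq 0.5.3p9 and TopHat2 2.0.11 appear in their processing notes, with no role given for any. FPKM scales a gene to its length and library, so depth was recovered from the steps of the deposited FPKM values, within 0.002 reads. All 10416 genes that averaged 1 FPKM or more came out whole and were tested with limma 3.58.1 (R 4.3.3, variance trend) on log2(FPKM + 1), which understates changes of low genes. Benjamini-Hochberg adjustment covered all of them, with a threshold of 0.05. The code was tested on simulated data.

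All 37 genes are accounted for. Of each list of other pathway genes, up to 4 past the threshold or else the 2 with the smallest p were named. The genes, lists and alternatives were chosen with earlier results of these data known. Symbols were matched as deposited, and a symbol not found so, such as TIGAR, was matched by its reference gene ID. The alternatives took the replicate number as a block, rescaled libraries by median ratios, set the pseudocount to 0.1, dropped the filter or raised it to 5 FPKM, and used a GC and length correction (GENCODE v29, 97.9% of genes matched) or limma's voom on recovered reads, or left libraries out. Plots used matplotlib 3.10.9, and exact tests scipy 1.17.1 under Python 3.11.15.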

Additional observations from a re-analysis of the deposited data

How the results depend on the processing

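Over all genes 3 rose in the reported fit, ARID1B among them, whose adjusted p ran from 0.00229 to 0.838 over the alternatives by limma. There were 0 with no filter, 0 with the replicate block, 5 with the GC and length correction, 0 with that correction and the block, 1 with voom on recovered reads, and 0 with both libraries numbered 3 left out. With 1 library left out, 0 to 125 rose and 0 to 199 fell, and in each case only the fit without vector replicate 2 gave any. Of the glycolysis and hypoxia-inducible genes, 0 rose and 0 to 1 fell (CA12, without vector replicate 2). The labels do not say whether the numbers pair the samples. Same-numbered libraries deviated against each other (r = -0.46, -0.43 and -0.17). ARID1B replicate 1 deviated with vector replicate 2 (r = 0.46), and ARID1B replicate 2 with vector replicate 1 (r = 0.43). With 3 libraries a group and vector replicate 2 far from the rest, these values cannot show whether same-numbered cultures were handled together.

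Of 503 log2 changes under 15 alternatives, 461 kept sign and side of the threshold, 41 turned sign and 1 passed the threshold. The sign held throughout for 18 genes and turned for 16, none of them past the threshold. With the GC and length correction, with or without the replicate block, ALDOC was at 0.11, TPI1 at 0.083, GAPDH at 0.026, PGK1 at -0.0011, PFKFB4 at 0.059 and KDM3A at -0.19. With both libraries numbered 3 left out, SLC16A3 was at -0.041, ALDOC at 0.058, PGAM1 at -0.094 and ENO2 at -0.036. With 1 library left out, the log2 change ran from -0.13 to 0.44 for SLC16A3, -0.068 to 0.41 for PFKP, -0.33 to 0.099 for ALDOA, -0.35 to 0.077 for ALDOC, -0.38 to 0.25 for TPI1, -0.36 to 0.032 for GAPDH, -0.12 to 0.27 for PGAM1, -0.37 to 0.22 for ENO1, -0.052 to 0.13 for ENO2, -0.26 to 0.19 for PKM, -0.20 to 0.027 for PDK1, -0.034 to 1.36 for EPAS1, -0.13 to 0.58 for BNIP3L and -0.080 to 0.064 for KDM3A. The cause of these turns was not tested. The median over the 34 genes was -0.015 without ARID1B replicate 1 and -0.022 without vector replicate 1. How far depth or the spread between libraries limits these values was not tested.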
